A study of Mus musculus with 60 samples.

Results

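Mt1 and Mt2, the genes of metallothionein 1 and metallothionein 2, were described across 52 RNA-seq libraries of female mouse embryonic stem cell (ESC) clones and of neurons made from Tg-12 lines. They are 2 of 14383 genes listed in at least 1 library of the series. Both were chosen from measured values: upon doxycycline, the portion of their allele-specific reads that came from the Cast/Ei allele went up in clones 85, 86, 109 and 190, which carry no transgene on chromosome 8. The values of those 4 clones are therefore given as a description, without a test, and the tests below rest on the other clones. They enter only 1 alternative fit over all ESC libraries, where they share the estimate of the spread.

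Metallothioneins are small cysteine-rich proteins that bind zinc, copper and cadmium. They buffer zinc inside the cell and take up toxic metals. Their genes are best known for being switched on by zinc and cadmium through the transcription factor MTF1, which binds short metal response elements in front of them, and they also respond to glucocorticoids and to oxidative stress. In most mouse cells Mt1 and Mt2 are the active members, while Mt3 is known from the brain and Mt4 from stratified epithelia.

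All clones came from F1 ESCs of a 129/Sv by Cast/Ei cross, so that the 2 alleles of a gene can be told apart where they differ in sequence. All carry the transactivator M2rtTA at the ROSA26 locus and a doxycycline-inducible Xist transgene, and Xist is the RNA that silences the X chromosome in cis. Untreated ESCs were compared with ESCs given 2 μg/ml doxycycline for 5 days, which switches the transgene on, and neurons were at day 14. In Tg-E clones 87 and 68 the transgene sits at the Xist locus of the Cast X (40,XX). Tg-X clones 85, 86, 109 and 190 carry it on the Cast X, and in Tg-X;8 clones (203b, 267, 339) it sits on the fusion of the 129 X with an additional copy of the distal Cast chromosome 8 (both 40,XX,t(X;8)). Tg-12 clones 160, 228, 273 and 55 carry it on 1 copy of chromosome 12 in a line listed as trisomic for that chromosome (41,XX,dup12). All these karyotypes are those the study lists. The allelic reads of chromosomes 8 and 12, given below, depart from them in several clones. Clone 160 is labelled with an X-linked transgene but is listed as Tg-12 in the study's methods, and clones 267 and 160 also carry a Tsix-Stop allele on the 129 X. The libraries of clone 55 are titled 38. Neuron libraries titled 20 carry the transgene on chromosome 12 by their labels and were taken as the same clone, which no label states. Each line is a single clone, with 2 libraries per treatment in ESCs except for clone 203b (1 treated) and clone 68 (1 treated and no untreated). The study calls the libraries of a clone and treatment biological replicates. In the treatment fits the p-values rest on the spread between libraries around a change common to the clones of a category. Differences between clones in their response therefore enter that spread as well. The comparison of untreated Tg-X;8 clones with other clones rests on the spread between clones. Statements on whether libraries overlap describe the values only, because the share of all genes without overlap is not given.

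Levels and allelic ratios were used. The level of a gene is given as CPM, its count of all reads scaled to 1e+06 reads counted over the listed genes of the library. The Cast/all ratio is the number of reads assigned to the Cast allele over all allele-specific reads of the gene, and a gene is listed only with at least 8 of these. ESC libraries held between 2284822 and 20637905 counted reads and neuron libraries between 25057343 and 32336068. Mt1 and Mt2 were listed in all 52 libraries, Mt1 with 226 to 11058 and Mt2 with 35 to 2766 allele-specific reads. Both lowest values belong to the second treated library of clone 87, where the Mt1 ratio was 0.491 with a 95% Wilson interval of 0.427 to 0.556 and the Mt2 ratio 0.743 with an interval of 0.579 to 0.858. Such intervals cover counting error only and take each count as a separate read, so they are too narrow where a read covers several sites. The allele-specific count of Mt1 was above its count of all reads in 3 ESC libraries, which counting per site allows. ESC libraries also fell into 2 classes by the percentage of allele-specific reads among all reads, between 26.7% and 29.8% in 5 untreated and 13 treated libraries and between 31.9% and 34.2% in 19 untreated and 11 treated ones. Xist was listed in 15 untreated ESC libraries at 24.1 to 297 CPM and in 24 treated ones at 182 to 2160 CPM. The untreated libraries within the treated range were of clones 160 (297 CPM) and 267 (240 and 223 CPM). These carry the Tsix-Stop allele, by which the study explains their higher basal Xist. All 10 pluripotency markers were listed in every ESC library.

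The 2 genes lie next to each other on chromosome 8, both on the plus strand (RefSeq annotation of GRCm38.p6, the mm10 build of the files). The Mt2 transcript spans chr8:94172618-94173567 and the Mt1 transcript chr8:94179089-94180327, with 5522 bases between them. Each has 3 exons and 186 coding bases for 61 residues, and the 2 coding sequences are identical at 148 of 186 positions (79.6%). The interval that the files list for each gene (94180102 to 94180327 for Mt1, 94173336 to 94173567 for Mt2) is its exon 3, which holds the end of the coding sequence and the 3′ UTR. No stretch of 43 bases, the read length, of the Mt1 transcript matched another gene's transcript with at most 2 differences. Of 514 such stretches of Mt2, 277 matched Gm45774, an annotated antisense gene that overlaps Mt2. Use of the strand in counting was not stated, so reads of Mt2 and of Gm45774 cannot be told apart.

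The core of the metal response element, TGCACNC or TGCGCNC on either strand, was searched from 250 bases before each transcript start to the start codon, because this is the element through which metals act on both genes. There were 5 matches at Mt1, 1 before and 4 after the RefSeq transcript start, and 7 at Mt2, 3 before and 4 after it. This split depends on the RefSeq starts, and other starts were not examined. The 3 nearest to each transcript start are shown with 10 bases on either side, read 5′ to 3′ on the strand of the match, with the core in capitals.
Mt1, 23 bases before the start, plus strand (chr8:94179056-94179082): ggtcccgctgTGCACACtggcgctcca
Mt1, 2 bases after the start, plus strand (chr8:94179081-94179107): cagggagctcTGCACTCcgcccgaaaa
Mt1, 20 bases after the start, plus strand (chr8:94179099-94179125): gcccgaaaagTGCGCTCggctctgcca
Mt2, 50 bases before the start, minus strand (chr8:94172558-94172584): ggacagagccTGCACACgccctccccc
Mt2, 4 bases after the start, minus strand (chr8:94172612-94172638): cccctgggccTGCGCACgacccgaatt
Mt2, 58 bases after the start, minus strand (chr8:94172666-94172692): ccccgccgccTGCACACgccctttttc

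In the RefSeq promoter windows of 300 bases, 250 before and 50 after a gene's start, Mt2 held 4 matches and Mt1 held 3. Of 32851 such windows, 0.517% held at least 4 and 1.97% at least 3, while 25.7% held at least 1. The windows of Mt3 and Mt4 held 1 match each. A match is a description of the letters and not a measured binding site.

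Mt1 and Mt2 were among the abundant transcripts of untreated ESCs. Their median rank by reads was 250.5 for Mt1 and 127 for Mt2, among a median of 7892.5 listed genes. Per transcript length the level of Mt2 was above that of Mt1 in 52 of 52 libraries, by 1.16-fold to 2.35-fold (median 1.75-fold). In ESCs the other members of the family were at the limit of listing or not listed. Mt3 was listed in 2 ESC libraries at 7.17 and 1.02 CPM, with 10 and 11 allele-specific reads. In the 4 neuron libraries it was at 3.43 to 39.8 CPM, with 30 to 353 such reads. Mt4 was listed in none.

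In CPM, Mt1 was ordered by group median as follows, lowest and highest library in brackets where there were more than 2. Untreated Tg-X clones had 684 (445 to 877), untreated Tg-X;8 clones 542 (394 to 640) and untreated Tg-12 clones 410 (329 to 885). Treated Tg-12 clones had 380 (253 to 431) and untreated neurons, with 2 libraries, 371. Treated neurons followed with 356, treated Tg-X clones with 353 (161 to 440) and treated Tg-X;8 clones with 278 (231 to 300). Clone 87 was lowest, with 127 and 229 untreated and 134 and 42.7 treated, and clone 68 had 146 treated. Each group overlapped with its neighbours in this order, except that the untreated libraries of clone 87 were below all treated Tg-X;8 libraries.

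For Mt2 the order of medians in CPM was untreated Tg-X at 1197 (881 to 1365), untreated Tg-X;8 at 1112 (670 to 1427), treated Tg-X at 691 (276 to 1055) and untreated Tg-12 at 647 (512 to 1586). Treated Tg-12 clones had 643 (473 to 950), treated Tg-X;8 clones 582 (368 to 706), treated neurons 578 and untreated neurons 564. Clone 87 was again lowest, with 219 and 370 untreated and 241 and 64.0 treated, and clone 68 had 256. Only the step from the neurons to clone 87 separated neighbouring groups whose libraries did not overlap.

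**Figure D1:**
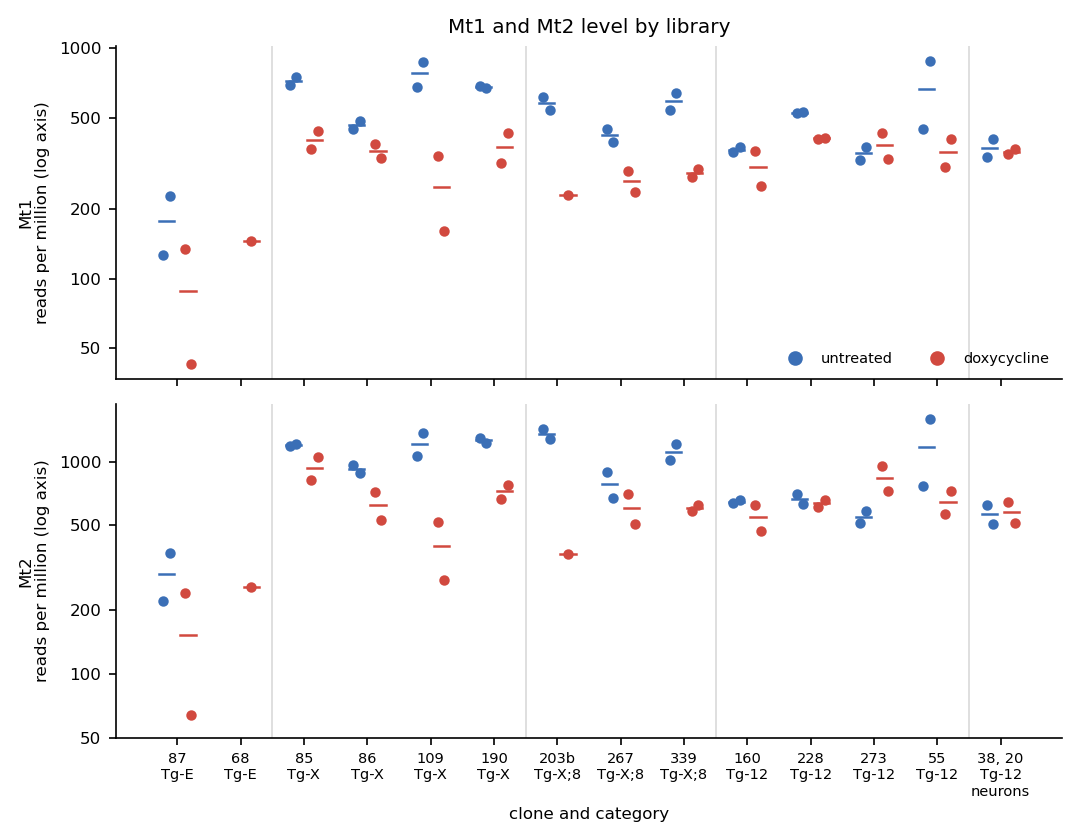
Level of Mt1 (upper panel) and Mt2 (lower panel) in CPM on a log axis, by clone and category; points are libraries, blue untreated and red treated with doxycycline, and bars their means. In each of the Tg-X and Tg-X;8 clones the treated Mt1 libraries sit below the untreated ones, while clone 273 has means of 352 untreated and 381 treated.

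Replicate libraries spread widely in both genes. Over 23 pairs of libraries of the same clone and treatment, the SD of log2 CPM was 0.39 for Mt1 and 0.41 for Mt2. Of 4711 genes, 97.6% had a smaller SD than Mt1 and 98.2% a smaller SD than Mt2. A pair differed by a median of 1.18-fold for Mt1 and 1.28-fold for Mt2, and by at most 3.12-fold and 3.75-fold.

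Both genes had more Cast reads than the chromosome around them. The median ratio of distal chromosome 8 genes, which is 0.667 where 2 of 3 copies are Cast, lay between 0.625 and 0.667 in the libraries of the Tg-X and Tg-X;8 clones and of clone 160. It lay between 0.65 and 0.667 in the ESC libraries of clones 228, 273 and 55, where the proximal part was at 0.670 to 0.699 as well. Neuron libraries were at 0.648 to 0.663 on the distal and 0.656 to 0.681 on the proximal part. Clones 87 and 68 were at 0.489 to 0.5 on the distal part. In untreated ESC libraries the median ratio of chromosome 12 genes was 0.661 to 0.680 in Tg-12 clones and 0.656 to 0.675 in Tg-X clones. It was 0.656 to 0.677 in Tg-X;8 clones and 0.674 and 0.684 in clone 87. By these reads a gain of Cast chromosome 12 did not set Tg-12 clones apart from the other categories. The Mt1 ratio was above the distal chromosome 8 median of its own library in 51 of 52 libraries, the exception being the second treated library of clone 87, and the Mt2 ratio in 52 of 52.

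**Figure D2:**
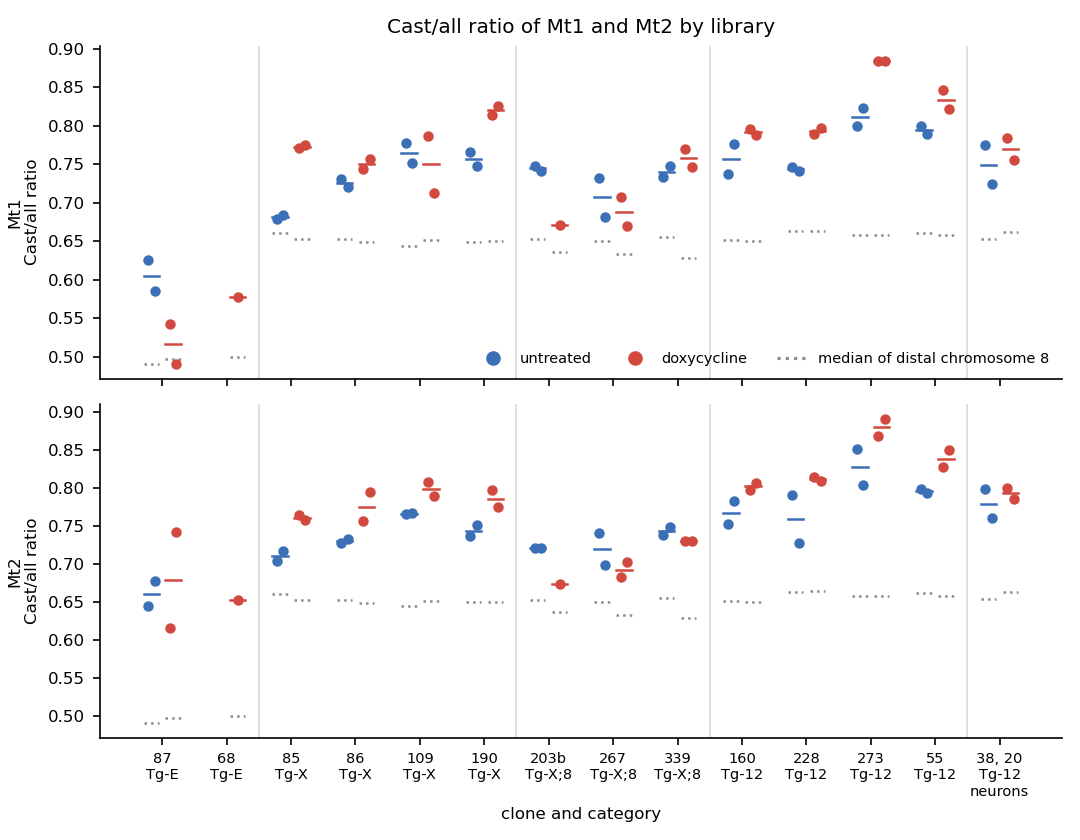
Cast/all ratio of Mt1 (upper panel) and Mt2 (lower panel) by clone and category; points are libraries, blue untreated and red treated, solid bars their means and dotted grey bars the mean of the library medians of distal chromosome 8. In each of the 4 Tg-12 clones both treated points are above both untreated points for both genes, for example 0.885 against 0.812 (means) for Mt1 in clone 273.

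Tg-X clones are those that chose the genes. Their Mt1 ratio was 0.679 and 0.684 in the untreated libraries of clone 85 and 0.771 and 0.775 in the treated ones. Clone 86 had 0.731 and 0.721 untreated and 0.744 and 0.757 treated, and clone 190 had 0.767 and 0.748 untreated and 0.814 and 0.826 treated. Clone 109 had 0.778 and 0.751 untreated and 0.788 and 0.713 treated. In 3 of these clones the treated libraries were above the untreated ones, and in clone 109 they overlapped. With the reads of its libraries added up, the ratio of clone 109 was higher by 0.0145 upon doxycycline, and as a mean of libraries it was lower by 0.0145. Its second treated library held 571 allele-specific Mt1 reads and the first 3600. The Mt2 ratio did not overlap in any of the 4 clones, with means of 0.711 untreated and 0.761 treated in clone 85, 0.731 and 0.776 in clone 86, 0.766 and 0.799 in clone 109, and 0.744 and 0.786 in clone 190. Both the level and the ratio of this contrast belong to the choice of the genes, so nothing is drawn from these counts (at the adjusted threshold used below, 3.59% of 5742 genes passed in the ratio, 1.17% upward and 2.42% downward, and 41% in the level, 21% upward and 20% downward).

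The fitted change in Tg-X was −0.94 ± 0.17 (log2 ± SE) in the level of Mt1 and −0.84 ± 0.16 in that of Mt2. Fewer cells that use a gene and less RNA of it per cell cannot be told apart in bulk libraries. The ratio of Cast to 129 reads changed by 0.36 ± 0.07 for Mt1 and by 0.35 ± 0.07 for Mt2 on the log2 scale. Reads of both alleles went down. Cast reads of Mt1 changed by −0.79 ± 0.17 and 129 reads by −1.15 ± 0.14, and for Mt2 these were −0.90 ± 0.18 and −1.22 ± 0.18. All 8 untreated Tg-X libraries were of the class with more allele-specific reads, against 4 of 8 treated ones, and the part of this class in the Tg-X values was not tested.

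In Tg-X;8 clones the level of both genes fell. Mt1 was at 616 and 542 CPM in the untreated libraries of clone 203b and at 231 in its treated library. It was at 446 and 394 untreated and 293 and 238 treated in clone 267, and at 542 and 640 untreated and 278 and 300 treated in clone 339. All 5 treated libraries were below all 6 untreated ones, which is a description without the share of all genes that separate in this way. By the quasi-likelihood test of edgeR, adjusted by Benjamini-Hochberg over 6088 genes, the change was −0.96 ± 0.12 on the log2 scale (adjusted p = 0.000363), a 1.95-fold decrease. In this comparison 6.5% of the genes passed, 2.83% lower and 3.68% higher. Given only libraries of the class with more allele-specific reads, a check added once the data had been seen, the change of Mt1 was −0.82 ± 0.13 (edgeR, adjusted p = 0.00137).

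Mt2 in Tg-X;8 clones was at 1427 and 1277 CPM untreated and 368 treated in clone 203b. Clone 339 had 1019 and 1205 untreated and 582 and 623 treated. In clone 267 it was at 891 and 670 untreated and 706 and 508 treated, and this was the clone in which the groups overlapped. The change was −0.90 ± 0.21 (edgeR, adjusted p = 0.0201). It did not hold at 0.05 without the second treated library of clone 267 (−0.92, adjusted p = 0.0548), the second untreated library of clone 339 (−0.88, adjusted p = 0.0550) or the first treated library of clone 339 (−0.88, adjusted p = 0.0527), each by edgeR. With the replicate number as a block it was −0.85 (edgeR, adjusted p = 0.0617). With libraries of the class with more allele-specific reads alone it was −0.53 ± 0.16 (edgeR, adjusted p = 0.0606), and these were 5 of 6 untreated but 2 of 5 treated libraries.

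The Cast/all ratio of Mt1 in Tg-X;8 clones was 0.749 and 0.742 untreated and 0.672 treated in clone 203b. Clone 267 had 0.732 and 0.682 untreated and 0.708 and 0.670 treated, and clone 339 had 0.733 and 0.748 untreated and 0.770 and 0.747 treated. The treated library of clone 203b was lower than its untreated ones, and the other 2 clones overlapped. The log2 change of the Cast to 129 ratio was −0.11 ± 0.08 (edgeR, adjusted p = 0.773), with 0.969% of the genes tested passing, 0.624% upward and 0.345% downward. It rested on clone 203b: without its treated library the change was 0.00016, and with the class of the library as a term it was 0.01.

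For Mt2 the ratio was 0.721 in both untreated libraries of clone 203b and 0.674 in the treated one. It was 0.741 and 0.699 untreated and 0.682 and 0.703 treated in clone 267, and 0.738 and 0.749 untreated and 0.731 and 0.731 treated in clone 339. The treated libraries were lower than the untreated ones in clones 203b and 339 and overlapped with them in clone 267. By edgeR the change of −0.17 ± 0.10 did not pass (adjusted p = 0.724). In the exact two-sided permutation test of treatment within clones the mean difference of −0.0291 had p = 0.0185, the smallest that 108 arrangements allow, and an adjusted p of 0.0494 over the 8 such comparisons made. For Mt1 the difference was −0.0247 (exact permutation p = 0.241). Distal chromosome 8 as a whole also moved in Tg-X;8 clones, with a median over libraries of 0.653 untreated and 0.632 treated. Over the chromosome 8 genes of the edgeR fit the median change was −0.09, and neither test subtracts it. Against the distal chromosome 8 median of the library, the mean log2 odds of Mt2 were 0.51 untreated and 0.48 treated. For Mt1 they were 0.53 and 0.55.

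In Tg-12 clones the Cast/all ratio of both genes was higher upon doxycycline, and the change in their level did not pass the test. The Mt1 ratio was 0.738 and 0.777 in the untreated libraries of clone 160 and 0.796 and 0.788 in the treated ones. Clone 228 had 0.746 and 0.741 untreated and 0.789 and 0.797 treated. Clone 273 had 0.8005 and 0.823 untreated and 0.884 and 0.885 treated, and clone 55 had 0.8004 and 0.790 untreated and 0.847 and 0.822 treated. Treated and untreated libraries did not overlap in any of the 4 clones. The share of all genes that separate in this way is not given, so nothing is drawn from it. The ratio of Cast to 129 reads of Mt1 rose by 0.47 ± 0.07 on the log2 scale (edgeR, adjusted p = 0.000416), and Mt1 was the 1 gene of the 5080 tested that passed (0.0197%). This share is low by design for genes in cis to the transgene. The study lists the transgene on the 129 chromosome 12 in clone 55 and on the Cast one in clones 160, 228 and 273. The chromosome 12 median went from 0.661 and 0.668 to 0.703 in clone 55. In clone 160 it went from 0.667 and 0.671 to 0.635 and 0.645, and 1 treatment term averages such opposite shifts. With each of the 16 libraries left out in turn the change stayed between 0.42 and 0.51, with adjusted p of at most 0.00293 (edgeR). Without clone 160 it was 0.53 ± 0.07 (adjusted p = 0.000451).

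The Mt2 ratio was 0.753 and 0.783 untreated and 0.798 and 0.807 treated in clone 160. In clone 228 it was 0.792 and 0.728 untreated and 0.815 and 0.810 treated, in clone 273 it was 0.852 and 0.804 untreated and 0.869 and 0.891 treated, and in clone 55 it was 0.799 and 0.794 untreated and 0.828 and 0.8501 treated. Here too the libraries did not overlap within any clone. The change of 0.42 ± 0.09 on the log2 scale had an unadjusted p of 6.78e-05 and did not pass over all genes (edgeR, adjusted p = 0.103). In 1 fit over all ESC libraries its adjusted p was 0.00723 (edgeR). There the Tg-X clones that chose the genes share the estimate of the spread, so nothing is drawn from that call. In the exact permutation within clones both genes had the smallest p that 1296 arrangements allow (0.00154, adjusted over 8 comparisons 0.00617), with a mean difference in ratio of 0.0491 for Mt1 and 0.0455 for Mt2, upward in 4 of 4 clones. Of the treated Tg-12 libraries 4 were of either read class, and of the untreated ones 5 were of the class with more and 3 of the class with fewer allele-specific reads. With the class as a term the change was 0.47 for Mt1 and 0.41 for Mt2.

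The Mt1 level in Tg-12 clones was 354 and 374 CPM untreated and 357 and 253 treated in clone 160, and 522 and 527 untreated and 404 and 408 treated in clone 228. It was 329 and 375 untreated and 431 and 331 treated in clone 273, and 446 and 885 untreated and 305 and 404 treated in clone 55. Treated libraries were lower than untreated ones in clones 228 and 55 and overlapped with them in clones 160 and 273. The change was −0.37 ± 0.18 (edgeR, adjusted p = 0.537), where 0.197% of 5080 genes passed, 0.0787% downward. For Mt2 the clone means in CPM were 647 untreated and 549 treated in clone 160, 665 and 635 in clone 228, 547 and 839 in clone 273, and 1174 and 647 in clone 55. Clones 160 and 55 were lower and clone 273 was higher upon doxycycline without overlap, and the change was −0.16 ± 0.21 (edgeR, adjusted p = 0.930). Without the second untreated library of clone 55, at 1586 CPM, it was 0.05.

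**Figure D3:**
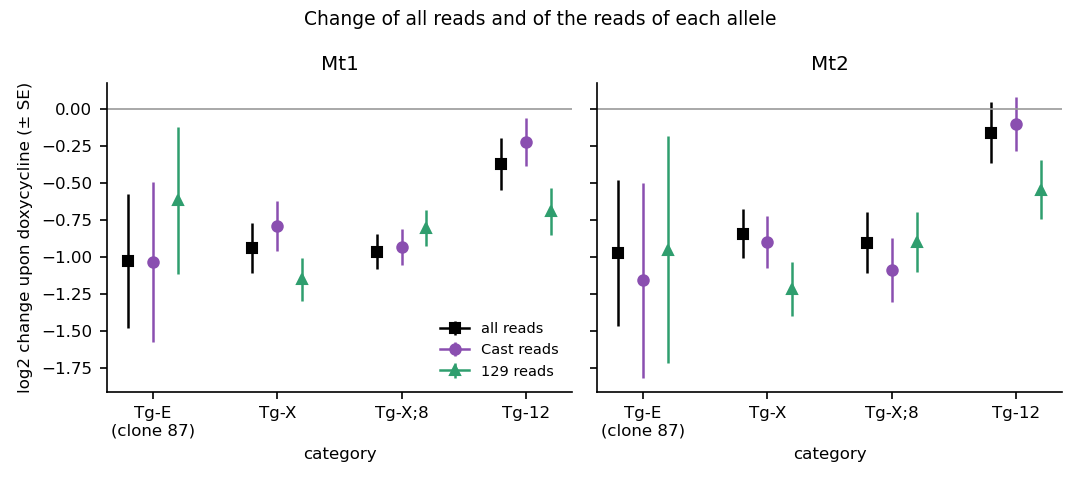
Fitted log2 change upon doxycycline (± SE) of all reads (black squares), Cast reads (purple circles) and 129 reads (green triangles) of Mt1 (left) and Mt2 (right) in each category. In Tg-12 clones the 129 reads of Mt1 changed by −0.69 and the Cast reads by −0.22, whereas in Tg-X;8 clones they changed by −0.81 and −0.93.

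The reads of each allele were then fitted alone, relative to all allele-specific reads of a library, as a further check added once the data had been seen. In Tg-X;8 clones both alleles of both genes fell. For Mt1 the change was −0.93 ± 0.12 in Cast reads (edgeR, adjusted p = 0.00174) and −0.81 ± 0.12 in 129 reads (adjusted p = 0.00272). For Mt2 it was −1.09 ± 0.22 (edgeR, adjusted p = 0.0175) and −0.90 ± 0.20 (adjusted p = 0.0358). Of the 6088 genes 1.59% passed in Cast reads, 0.854% upward and 0.739% downward, and 1.53% in 129 reads, 0.641% upward and 0.887% downward. In Tg-12 clones no change of a single allele passed: Mt1 had −0.22 ± 0.16 in Cast (edgeR, adjusted p = 0.870) and −0.69 ± 0.16 in 129 reads (adjusted p = 0.183), and Mt2 had −0.10 ± 0.18 (adjusted p = 0.975) and −0.54 ± 0.20 (adjusted p = 0.572).

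The change of the Cast to 129 ratio upon doxycycline differed between Tg-X;8 and Tg-12 clones in both genes. The difference, Tg-X;8 minus Tg-12, was −0.58 ± 0.11 for Mt1 (edgeR, adjusted p = 0.00308) and −0.59 ± 0.13 for Mt2 (edgeR, adjusted p = 0.0172), and 0.47% of 4896 genes passed. Without the treated library of clone 203b it was −0.47 for Mt1 and −0.56 for Mt2, with an adjusted p of 0.0550 for each (edgeR). For Mt2 it also missed the threshold without the first untreated (−0.54, adjusted p = 0.0721) or the first treated (−0.57, adjusted p = 0.0501) library of clone 267. Over the chromosome 8 genes of this comparison the median difference in ratio was −0.09. The difference in level was −0.58 ± 0.25 for Mt1 (edgeR, adjusted p = 0.561) and −0.74 ± 0.33 for Mt2 (adjusted p = 0.603), and 0.184% of the genes passed. Without the second untreated library of clone 55 that of Mt1 was −0.75 (adjusted p = 0.0201).

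In the Tg-E clone 87 treated and untreated libraries overlapped in the level of both genes. The change was −1.03 ± 0.45 for Mt1 (edgeR, adjusted p = 0.594) and −0.97 ± 0.49 for Mt2 (adjusted p = 0.654), with 0.0275% of 7282 genes passing. Without the first treated library the changes were −2.09 and −2.24 and passed (edgeR, adjusted p = 1.1e-06 and 2.07e-07), with the lone library assumed to vary like the others. The Mt1 ratio was 0.626 and 0.586 untreated and 0.543 and 0.491 treated, without overlap (log2 change −0.48 ± 0.15, edgeR, adjusted p = 0.255, 1.06% of the genes passing, 0.975% downward and 0.0824% upward). The Mt2 ratio was 0.644 and 0.678 untreated and 0.616 and 0.743 treated, with overlap (−0.14 ± 0.27, adjusted p = 0.989), and without the first treated library this change was 0.56. A permutation of 2 libraries against 2 cannot go below p = 0.333. Clone 68, treated once, had a ratio of 0.578 for Mt1 and 0.652 for Mt2.

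Untreated Tg-X;8 clones were set against the untreated Tg-12 and Tg-E clones (160, 228, 273, 55 and 87), which are not listed with the translocation, to see whether the additional distal chromosome 8 goes with another level. The mean Mt1 ratio over clones was 0.731 ± 0.021 (SD, n = 3) against 0.743 ± 0.081 (SD, n = 5; exact permutation p = 0.786 over 56 arrangements). For Mt2 it was 0.728 ± 0.013 (SD, n = 3) against 0.763 ± 0.063 (SD, n = 5; exact permutation p = 0.429). On summed reads per clone the level differed by 0.25 ± 0.39 for Mt1 (edgeR, adjusted p = 0.975) and 0.60 ± 0.40 for Mt2 (adjusted p = 0.945), with intervals of −0.51 to 1.02 and −0.19 to 1.39 on the log2 scale, and 0.0196% of 5093 genes passed. By their reads 4 of these 5 clones also carried a gain of distal chromosome 8, so this comparison sets copy number apart only in clone 87. Clone 160 had the pattern of the clones with the translocation, with library medians of 0.503 to 0.516 on the proximal and 0.646 to 0.655 on the distal part. Without it the difference in level was 0.17 ± 0.43 for Mt1 (edgeR, adjusted p = 0.965) and 0.55 ± 0.45 for Mt2 (edgeR, adjusted p = 0.840), and that in ratio −0.00798 and −0.0331 (exact permutation p = 0.914 and 0.514).

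Neurons came from lines 38 and 20, with 1 untreated and 1 treated library each. Line 38 is clone 55. The median ratio of chromosome 19 was 0.462 and 0.505 in the libraries of line 20 and 0.333 to 0.345 in the ESCs and neurons of line 38, so that line 20 stood apart from the clone it was taken as. These libraries kept all 10 pluripotency markers, at 1774 to 3623 CPM in sum against 7215 to 12887 in ESCs. The 12 neuron markers summed to 134 to 1029 CPM against 31.1 to 277 in ESCs, and Stmn2 was not listed. Treated neurons, at 134 and 224 CPM, were within the ESC range in this sum. The 10 endoderm markers summed to 175 to 570 CPM, with 9 or 10 of them listed in each neuron library, against 0 to 36.0 CPM in ESCs, where at most 1 was listed in a library. The part of these other cell types in the neuron values was not tested. The endoderm sum was highest in a treated neuron library, at 570 CPM, against at most 480 CPM in the untreated ones. Among neuron libraries only the untreated one of line 38 listed the astroglial Gfap, at 66.2 CPM, and there Mt3 was at 39.8 CPM. Mt1 was at 337 (line 20) and 405 CPM (line 38) untreated and 347 and 366 treated, and Mt2 at 623 and 505 untreated and 642 and 515 treated. Mt2 was higher in line 20 than in line 38 in both treatments, and all 4 values of each gene were within the range of the ESC libraries of the same category.

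Upon doxycycline the neurons changed by −0.07 ± 0.38 in the level of Mt1 and 0.03 ± 0.40 in that of Mt2 (edgeR, adjusted p = 1 for both). These fits, and those of the ratio below, held no term for the line, so the difference between lines enters their SE. No alternative passed in level or ratio, a block by line among them. The Mt1 ratio was 0.775 and 0.725 untreated and 0.784 and 0.756 treated, the Mt2 ratio 0.799 and 0.760 untreated and 0.801 and 0.786 treated. Within each line the treated library was slightly above the untreated one, and over both lines the groups overlapped. The log2 changes were 0.16 ± 0.14 for Mt1 and 0.11 ± 0.14 for Mt2 (edgeR, adjusted p = 1.00 for both, 0.0296% of 6748 genes passing), with intervals of −0.13 to 0.44 and −0.17 to 0.39. Without the untreated library of line 38 they were −0.04 and −0.05.

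Untreated neurons of both lines against untreated ESCs of clone 55 had a change in level of −0.87 ± 0.39 for Mt1 (edgeR, adjusted p = 0.142) and −1.10 ± 0.40 for Mt2 (adjusted p = 0.0899), in a comparison in which 15.5% of 6748 genes passed. The untreated ESC libraries of this clone were at 446 and 885 CPM for Mt1. Without the first of them the changes were −1.37 and −1.61 and passed (edgeR, adjusted p = 0.00548 and 0.00299). The ratio changed by −0.36 ± 0.15 for Mt1 (edgeR, adjusted p = 0.324) and −0.14 ± 0.15 for Mt2 (adjusted p = 0.773), with 1.41% of the genes passing. The Mt2 value was 0.03 without the untreated neurons of line 38. With line 38 alone, chosen after the data had been seen, the changes in level were −0.71 ± 0.58 (edgeR, adjusted p = 0.457) and −1.21 ± 0.63 (adjusted p = 0.278), and those in ratio were −0.56 ± 0.13 (edgeR, adjusted p = 0.0473) and −0.30 ± 0.17 (adjusted p = 0.686).

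Genes that share the metals or the regulators of the metallothioneins were then examined in 5 lists. Of their 34 genes tested in Tg-X;8 clones 3 (8.82%) passed in level, close to the 6.5% over all genes. Of 8 zinc transporters tested (24 in the list) 2 fell in these clones and none rose. Slc39a1, a zinc importer of the cell surface, was at 51.0 to 70.9 CPM untreated (median 62.0) and 46.6 to 53.1 treated (median 50.1), a change of −0.31 ± 0.07 (edgeR, adjusted p = 0.0251). Slc39a11, another member of the importer family, was at 45.7 to 51.6 CPM untreated (median 47.8) and 35.4 to 45.4 treated (median 36.1), a change of −0.35 ± 0.08 (edgeR, adjusted p = 0.0277). The treated libraries of Slc39a11 were below all untreated ones and those of Slc39a1 overlapped with them. Of 15 targets of the oxidative stress factor Nrf2 tested (20 in the list), G6pdx, the X-linked glucose-6-phosphate dehydrogenase of the pentose phosphate pathway, fell by 0.24 on the log2 scale (SE 0.06, edgeR, adjusted p = 0.0362) and none rose. With the replicate number as a block none of these 3 genes passed (edgeR, adjusted p = 0.104 for Slc39a1, 0.106 for Slc39a11 and 0.172 for G6pdx). The log2 Cast to 129 ratio of the X-linked G6pdx changed by −1.37 ± 0.33 in Tg-E and −0.61 ± 0.18 in Tg-X clones. It changed by 0.27 ± 0.24 in Tg-X;8 and 0.32 ± 0.20 in Tg-12 clones. The part of Xist acting in cis on the X chromosome in the lower level of G6pdx was not tested.

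None of 4 MTF1 genes and targets tested (12 in the list), of 5 copper genes (10) and of 4 glucocorticoid targets (9) passed by edgeR in Tg-X;8 clones, too few genes to be told apart from the 6.5% over all. An unadjusted p below the threshold of 0.05 was reached by 1, 3 and 0 of them, and DESeq2 called 0, 1 and 0, the 1 being the copper exporter Atp7a. Median log2 changes of the 5 lists were −0.15 for the zinc transporters, −0.13 for the MTF1 list, −0.23 for the copper genes, −0.01 for the Nrf2 targets and −0.02 for the glucocorticoid targets, against −0.0015 over all genes tested and −0.93 for the metallothioneins. In Tg-12 clones no list gene of 27 passed in the level by edgeR (0.197% over all genes), and 1 zinc transporter and 3 Nrf2 targets had an unadjusted p under 0.05. DESeq2 called 3 there, all Nrf2 pathway genes that were higher: Nfe2l2, which encodes Nrf2 itself (0.25 ± 0.06, DESeq2, adjusted p = 0.00588), the quinone reductase Nqo1 (0.41 ± 0.09, adjusted p = 0.00244) and the autophagy receptor Sqstm1 (0.35 ± 0.07, adjusted p = 0.000484). In the Cast ratio no gene of these 5 lists passed in Tg-X;8 or Tg-12 clones, with an unadjusted p under 0.05 in 1 gene of the MTF1 list, 2 copper genes and 2 Nrf2 targets in Tg-X;8 and in 1 Nrf2 target in Tg-12 clones (the lists share genes).

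In clone 87 none of these lists had a call in level, with 3 zinc transporters and 2 Nrf2 targets at an unadjusted p under 0.05 and 0 calls by DESeq2. In Tg-X clones, where no test was made, the median log2 change was −0.19 over 10 zinc transporters, −0.16 over 4 MTF1 genes, −0.45 over 4 copper genes, −0.16 over 16 Nrf2 targets and 0.04 over 4 glucocorticoid targets, beside −0.89 for the metallothioneins and 0.01 over all genes.

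Genes around the pair were compared with it. Besides Mt1 and Mt2, 6 genes within 500 kb of Mt1 that were listed in every ESC library are described. In Tg-12 clones the change of the Cast to 129 ratio was between −0.07 and 0.05 in Nudt21, Ogfod1, Nup93, Fam192a and Arl2bp, and −0.78 ± 0.28 in Bbs2 (edgeR, adjusted p = 0.712), a gene of the cilium at a median of 31.5 CPM. In Tg-X;8 clones the changes in level of these 6 genes ran from −0.27 ± 0.10 in Nudt21 (edgeR, adjusted p = 0.124) to −0.06 ± 0.11 in Bbs2 (adjusted p = 0.772), all smaller than those of Mt1 and Mt2. Their ratios in Tg-X;8 clones changed by −0.64 ± 0.20 in Arl2bp (edgeR, adjusted p = 0.191), −0.61 ± 0.31 in Bbs2 (adjusted p = 0.607) and −0.40 ± 0.13 in the nucleoporin gene Nup93 (adjusted p = 0.235), and by −0.09 to 0.04 in the other 3. None of the 6 passed in level or ratio in Tg-E, Tg-X;8 or Tg-12 clones. With 6.5% of all genes passing in level in Tg-X;8 clones and smaller shares in the other comparisons, a count of 0 among 6 is near the background.

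**Figure D4:**
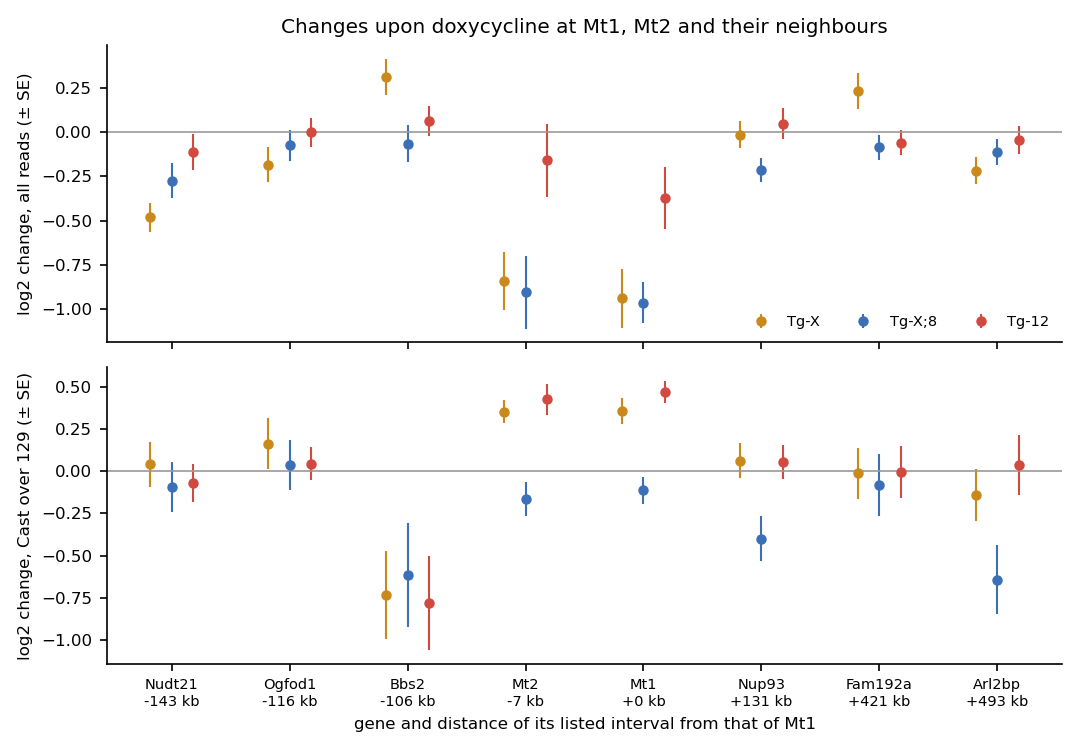
Fitted log2 change upon doxycycline (± SE) of all reads (upper panel) and of the ratio of Cast to 129 reads (lower panel) for Mt1, Mt2 and 6 genes within 500 kb of Mt1 listed in all ESC libraries, in order along the chromosome, with Tg-X (yellow), Tg-X;8 (blue) and Tg-12 (red) clones. Mt2 and Mt1 have the lowest level points in Tg-X (−0.84 and −0.94) and Tg-X;8 clones (−0.90 and −0.96), and in the lower panel their Tg-12 points are at 0.42 and 0.47.

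The levels of the 2 genes went together over libraries. Over 31 ESC libraries of 8 clones, the Tg-X clones left out and clone means subtracted, log2 CPM of Mt1 and Mt2 had Pearson's r = 0.956 and Spearman's rho = 0.921 (p = 1e-05 for each by permutation within clones, the smallest that 100000 permutations give; adjusted over 4 values 2e-05), and r = 0.934 without the 2 libraries farthest from the median. Within clone and treatment r was 0.985. The Cast ratios had r = 0.257 (permutation p = 0.348, adjusted 0.348) and rho = 0.490 (permutation p = 0.0257, adjusted 0.0342), r = 0.708 without the 2 farthest libraries and r = −0.364 within clone and treatment. With the Tg-X clones included, 47 libraries of 12 clones, r was 0.956 for the level and 0.393 for the ratio, given as a description. Replicates that were high in the level of 1 gene were high in that of the other, which was not so for the ratios.

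Among 4709 genes, the level of Ifitm3, an interferon-induced membrane protein, was most like the mean of Mt1 and Mt2 over 48 ESC libraries after subtraction of clone means (r = 0.883), followed by Pgrmc1 (0.864), Avpi1 (0.862), the calmodulin gene Calm3 (0.844) and Rasgrp2 (0.844). In Tg-X;8 clones their changes in level ran from −0.30 ± 0.11 in Ifitm3 to −0.13 ± 0.09 in Calm3, and in Tg-12 clones from −0.24 in Rasgrp2 to 0.05 in Pgrmc1. Pgrmc1 lies on the X chromosome, which is in cis to the transgene outside the Tg-12 clones. The part of this position in its likeness to the pair was not tested. For the Cast ratio, among 4497 genes, these were the GM2 ganglioside activator gene Gm2a (r = 0.684), Nt5dc2 (0.652), Ldha (0.614), Tdgf1 (0.607) and the kinase gene Nek9 (0.581), none of them on chromosome 8. In Tg-12 clones their log2 changes in ratio ran from 0.25 ± 0.09 in Nek9 to 0.38 ± 0.08 in the lactate dehydrogenase gene Ldha. Nek9 lies on chromosome 12, which carries the transgene in these clones. In Tg-X;8 clones, where Mt1 and Mt2 had −0.11 and −0.17, the change was 0.35 ± 0.08 in Ldha and 0.28 ± 0.04 in Tdgf1, which encodes the Nodal co-receptor Cripto. These genes were picked for their likeness to the pair over the same libraries, which share clones, parent line and treatment, so the correlations and the changes are a description and carry no test.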

How the data were processed

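RNA from ESC clones and neurons was sequenced as single reads of 43 bases. The authors aligned them with TopHat 2.0.6 to 129/Sv and Cast/Ei genomes based on mm10 and counted them with HTSeq 0.6.1, and the files list genes with at least 8 allele-specific reads. The deposited values used here are, for each library and gene, counts of all reads, counts of Cast and of 129 reads, and the Cast/all ratio, a deposited fraction. The Cast and 129 counts are sums over sites, so a read can enter them more than once. Only unique alignments were kept, and how strand was treated is not given in the sources used here. Counting only listed genes and sites that differ between the strains means that low genes drop out unevenly across libraries, and alignment to either genome may favour an allele.

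Genes listed in every library of a fit were tested on the counts with edgeR 4.0.16 (R 4.3.3), using its quasi-likelihood test with clone as a covariate (for neurons a term per cell type and treatment instead), TMM scaling and Benjamini-Hochberg adjustment with a threshold of 0.05. The ratio was tested on Cast and 129 reads with a term per library and a treatment by allele term. Exact permutation tests used scipy 1.17.1. Alternatives were DESeq2 1.42.0, library totals, other filters, a replicate block and leaving out libraries or clones. The fits were tested on simulated data. Named genes were Mt1, Mt2, the other metallothioneins, list genes past the threshold in Tg-E, Tg-X;8 or Tg-12 clones (at most 5 per list and fit), genes within 500 kb of Mt1 listed in all Tg-X and Tg-X;8 libraries, and the 5 genes most correlated with the pair in level and in ratio. The genes, lists and tests were chosen with earlier results of these data known. Of 25 pairs of replicate libraries none were identical. The 8 libraries of clone 292 were left out of comparisons because their titles and cell type labels conflict. Of the genes near Mt1, 1 is not reported here. Promoters came from the RefSeq table of GRCm38.p6.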

Additional observations from a re-analysis of the deposited data

Results flagged for a closer look

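Of 24 groups of 4 to 10 libraries examined, 3 held a library far from the others, and chance gives about 1 in 20. Among untreated Tg-12 libraries, the second of clone 55 had 1586 CPM of Mt2, and the next highest had 763. Among treated Tg-X libraries, the second of clone 109 had 161 CPM of Mt1, and the next lowest had 319. Among untreated Tg-X;8 libraries, the second of clone 267 had a Mt1 Cast/all ratio of 0.682, and the next lowest had 0.732.

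The change of the Cast to 129 ratio upon doxycycline differed between Tg-X;8 and Tg-12 clones, by −0.58 ± 0.11 on the log2 scale for Mt1 (edgeR, adjusted p = 0.00308) and by −0.59 ± 0.13 for Mt2 (edgeR, adjusted p = 0.0172). Of the 4 Tg-12 clones 4 had a higher ratio upon doxycycline in both genes, and of the 3 Tg-X;8 clones 1 had a higher ratio in Mt1 and 0 in Mt2. The 2 categories also differ in parent line and in listed karyotype, although by their reads both had the gain of chromosome 12. Transgene position, line and karyotype cannot be told apart in the difference between them. Over chromosome 8 genes the median difference was −0.09.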

How the results depend on the processing

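With 1 library left out at a time, 339 of the values kept their direction and their side of the threshold, 9 changed sign, 7 lost and 5 gained a call. Under the other alternatives these were 190, 7, 8 and 7. The fall of Mt1 in Tg-X;8 and the higher Mt1 ratio in Tg-12 clones passed under every alternative run, the former with log2 changes between −1.17 and −0.82. The level of Mt2 in Tg-X;8 clones did not pass with genes listed in 80% of libraries (−0.91), in 1 fit over all ESC libraries (−0.89), with a term for the read class (−0.78), with the class above 31% alone (−0.53) or without clone 267 (−1.28), nor with the replicate block (−0.85). The Mt1 ratio in Tg-X;8 clones changed sign with the read class term (0.0097) and in the class above 31% (0.079). The Mt2 ratio in Tg-12 clones passed with adjustment over chromosome 8 alone (0.42, adjusted p = 0.0117, edgeR) and by exact permutation (mean difference 0.0455). It also passed in 1 fit over all ESC libraries (0.42), where the Tg-X clones that chose the genes share the estimate of the spread. The Mt2 ratio in Tg-X;8 clones passed by exact permutation (−0.0291). In clone 87 the mean difference of the Mt2 ratio was 0.0186 against a fitted change below 0. By DESeq2 Mt2 was lower in neurons than in ESCs (−1.08, adjusted p = 0.0292), the difference of the Mt2 ratio between Tg-X;8 and Tg-12 clones did not pass (−0.59, adjusted p = 0.0809), and 3 list genes were called in Tg-12 clones. With line 38 alone the Mt1 ratio was lower in neurons (−0.56, edgeR, adjusted p = 0.0473), and on allele-specific reads the Mt1 level in neurons changed by 0.00013. The Mt1 ratio of untreated Tg-X;8 against other clones was 0.00027 without clone 267, 0.0057 without clone 273 and 0.0015 without clone 55. The read class, the single alleles, line 38 alone and the difference between categories without clone 160 were alternatives added once the data had been seen. The cause of these shifts was not tested.

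With single libraries left out, log2 changes ranged as follows. In clone 87 the Mt1 level ranged from −2.09 to −0.43, the Mt2 level from −2.24 to −0.32 and the Mt2 ratio from −0.28 to 0.56. In Tg-X;8 clones the Mt2 level ranged from −1.06 to −0.61 and the Mt1 ratio from −0.17 to 0.00016, and in Tg-12 clones the Mt2 level from −0.26 to 0.051. In neurons the treatment changes ranged from −0.24 to 0.12 (Mt1) and −0.13 to 0.17 (Mt2) in level and from −0.037 to 0.35 and −0.051 to 0.28 in ratio, with −0.075 for the Mt2 level without the untreated library of line 38. Neurons against ESCs ranged from −1.37 to −0.14 for Mt1, from −1.61 to −0.31 for Mt2 and from −0.30 to 0.026 for the Mt2 ratio. The difference between Tg-X;8 and Tg-12 clones ranged from −0.75 to −0.46 in Mt1 level, from −0.64 to −0.47 in Mt1 ratio and from −0.65 to −0.53 in Mt2 ratio.

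Libraries of a clone share replicate numbers, but the labels tie these to no culture or batch. The correlation of the deviations of same-numbered libraries was −0.59 to 0.74 in log2 CPM, over 0.1 in 8 of 11 clones, and −0.07 to 0.05 in ratio, over 0.1 in 0 of 11, so the numbers were not taken to pair the libraries. With the replicate number as a block the Mt1 level in Tg-X;8 clones changed by −0.93 (edgeR, adjusted p = 0.00354), the Mt1 ratio in Tg-12 clones by 0.47 (adjusted p = 0.00143), and the list calls in Tg-X;8 clones went from 5 to 1, Mt1 alone. Depth limits the ratio most for Mt2 in clone 87, where 1 library held 35 allele-specific reads.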

Other observations

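The 8 libraries of clone 292, whose titles and cell type labels conflict, were put in no group. Their Mt1 Cast/all ratio was 0.746 to 0.806 with a median of 0.751, and their Mt1 level 282 to 680 CPM with a median of 422. The Mt2 ratio was 0.767 to 0.811 with a median of 0.784, and the Mt2 level 494 to 1311 CPM. Mt3 was listed in 4 of these libraries, at 6.11 to 8.84 CPM.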
